A study of Mus musculus with 5 samples.

Results

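The genes described here encode 9 mitochondrial enzymes of the tricarboxylic acid cycle, or subunits of them: Cs, Idh3a, Idh3b, Idh3g, Ogdh, Suclg1, Sucla2, Fh1 and Mdh2. They were chosen by name from the 24330 gene symbols of the deposited expression table, and each had a single row in it. The 3 RNA libraries came from primary adipocytes of epididymal fat taken from 17-week-old wild-type C57BL/6 mice; no agent is named in the labels, and the labels do not say whether a library came from 1 mouse or a pool. The series also lists 2 bisulfite libraries, 1 from adipocyte-specific Dnmt1 knockout mice and 1 from wild-type mice, which were not analysed here, so no genotypes were compared. Values are FPKM, fragments scaled by transcript length and by library size, so levels of different genes can be compared per length, but each is a share of the library's RNA and not an amount per cell. In RNA of a whole preparation, fewer cells of a type and less RNA per cell cannot be told apart. No counts were given and the depth of each library is unknown. Errors are SDs over the 3 libraries, and nothing in the labels says whether these came from separate animals. The SDs take in wide differences in cell type markers, given further on. Summed adipocyte markers in replicate 1 were 3.05 and 2.92 times those in replicates 2 and 3. For testis germ cell markers the ratios were 37.4 and 56.2.

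The cycle oxidises acetyl groups to carbon dioxide in the mitochondrial matrix and passes the electrons, as NADH and reduced flavin, to the respiratory chain. Citrate synthase starts each turn by joining acetyl-CoA to oxaloacetate, and malate dehydrogenase closes it by making oxaloacetate again. In fat cells part of the citrate leaves the mitochondrion and is cleaved in the cytosol to supply acetyl-CoA for fatty acid synthesis, so the cycle serves both energy supply and fat storage.

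All 9 genes were well expressed. Each reached FPKM 1 in every library, as did 45.5% of all 24330 genes. Their means ran from 25.6 FPKM for Idh3a to 172 FPKM for Mdh2, a 6.70-fold range, and the median of the 9 on the log2(FPKM + 0.1) scale was 5.92, 5.16 and 5.40 in replicates 1, 2 and 3, against -0.19 ± 0.541 for all genes and 3.21 ± 0.111 for the 11993 genes averaging at least FPKM 1. Ranked among genes that reached FPKM 1 in every library, Idh3a stood at percentile 74.7 and Mdh2 at percentile 96.1. The 9 genes summed to 721, 481 and 535 FPKM, which was 0.143%, 0.0985% and 0.102% of the column totals. Mdh2 alone held 29.9% ± 2.51 of that sum and Idh3a 4.31% ± 0.853.

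**Figure D1:**
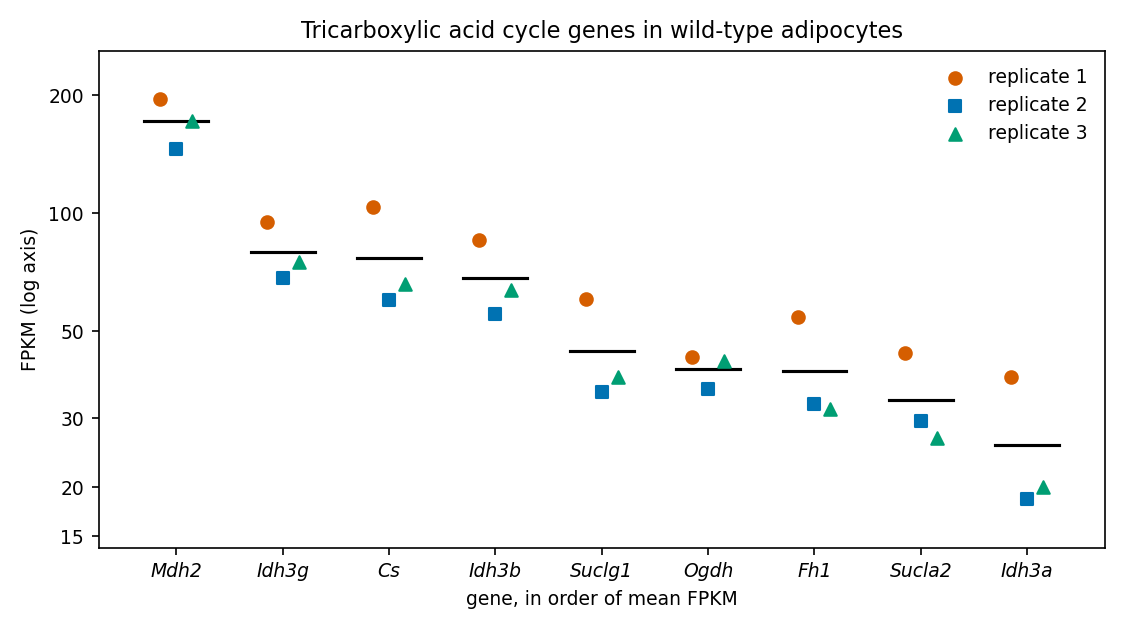
FPKM of each of the 9 genes on a log axis, ordered by mean; points are the 3 libraries and black bars their means. Replicate 1 has the highest point for every gene, Mdh2 lies above all others in each library, and the replicate 1 and replicate 3 points of Ogdh nearly coincide at 42.9 and 42.0 FPKM.

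By mean FPKM the order was Mdh2, Idh3g, Cs, Idh3b, Suclg1, Ogdh, Fh1, Sucla2 and Idh3a. Neighbours were taken as apart where their log2 ratio kept its sign in all 3 libraries and exceeded its own SD, a description with no test. By that measure 3 of the 8 neighbouring pairs were not apart: Idh3g and Cs, Suclg1 and Ogdh, and Ogdh and Fh1. Cs exceeded Idh3g in replicate 1, with a log2 ratio of Idh3g to Cs of -0.13, and lay below it in the other libraries, with ratios of 0.19 and 0.18. The step from Mdh2 down to Idh3g was the widest, at 1.11 ± 0.0800 log2 units.

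Citrate synthase, the entry enzyme, is encoded by Cs (chromosome 10, 128337832 to 128362479). Cs stood at 104, 60.2 and 65.9 FPKM over replicates 1, 2 and 3, highest in replicate 1, with replicates 2 and 3 close together. It exceeded Acly, the cytosolic enzyme that cleaves exported citrate, by 0.87, 0.34 and 0.23 log2 units. Csl, a citrate synthase-like gene elsewhere on chromosome 10, had 1.01 FPKM in replicate 1 and 0.0146 and 0.0147 in replicates 2 and 3. The listed value of Csl was far below that of Cs in every library. Fragments of similar genes could be split between both rows, which was not tested. Summed testis germ cell markers, given further on, were also highest in replicate 1, and a link with Csl was not tested.

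NAD-dependent isocitrate dehydrogenase, which releases the first carbon dioxide of the cycle, is built from a catalytic alpha subunit, Idh3a, and the beta and gamma subunits Idh3b and Idh3g. Their RNA levels were unequal, with the catalytic subunit lowest. Idh3a (chromosome 9, 54586511 to 54604662) stood at 38.1, 18.7 and 20.1 FPKM over replicates 1, 2 and 3. Idh3b (chromosome 2, 130279309 to 130284451) stood at 85.7, 55.3 and 63.6 FPKM, and Idh3g (chromosome X, 73778963 to 73786897) at 95.0, 68.6 and 74.9 FPKM. The 3 values of Idh3a thus lay below all values of the other subunits. Idh3a was below Idh3b by a mean log2 ratio of -1.46 ± 0.261, or 2.76-fold, and below Idh3g by -1.69 ± 0.328, or 3.23-fold. Idh3b and Idh3g were close, with a log2 ratio of -0.23 ± 0.0803 that was below 0 in 3 of 3 libraries. The assembled enzyme is known to hold more alpha subunits than beta or gamma subunits.

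Idh3b overlaps Nop56, a nucleolar RNA-binding protein gene, which stood at 28.8, 30.5 and 32.6 FPKM over replicates 1, 2 and 3. Whether the libraries preserved strand is not stated in the labels, and fragments from the overlap cannot be told apart. Idh3g lies 126 bases from Ssr4, a gene of the translocon-associated protein complex, which stood at 92.3, 90.9 and 102 FPKM and, unlike Idh3g, was highest in replicate 3. No promoter sequence was found for Idh3a. The promoters of the beta and gamma subunit genes, the closest pair among the isocitrate dehydrogenase subunits, are shown. Each runs 5′ to 3′ along the gene from 250 bases before to 50 bases after its RefSeq start (GRCm38.p6), minus strand, chr2:130284402-130284701 and chrX:73786848-73787147, and capitals mark matches on either strand to the 8 motifs listed further on.
Idh3b: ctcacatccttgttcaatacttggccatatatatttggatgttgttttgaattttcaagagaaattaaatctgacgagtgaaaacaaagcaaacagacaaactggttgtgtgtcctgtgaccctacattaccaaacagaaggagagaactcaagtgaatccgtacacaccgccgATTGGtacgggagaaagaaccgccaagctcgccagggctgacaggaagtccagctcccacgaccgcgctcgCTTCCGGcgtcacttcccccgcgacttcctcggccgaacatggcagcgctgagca
Idh3g: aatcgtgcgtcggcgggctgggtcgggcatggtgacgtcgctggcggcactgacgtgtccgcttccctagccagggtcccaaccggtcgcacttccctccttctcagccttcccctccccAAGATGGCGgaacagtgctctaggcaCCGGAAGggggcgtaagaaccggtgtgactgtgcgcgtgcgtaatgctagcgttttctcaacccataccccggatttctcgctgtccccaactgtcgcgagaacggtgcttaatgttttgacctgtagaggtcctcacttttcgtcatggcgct
In Idh3b the capitals mark an NF-Y box and an ETS match that begins at -5, and in Idh3g a YY1 match at -130 and an ETS match at -104, counted from the start with negative positions before it.

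The NADP-dependent isocitrate dehydrogenases were more abundant than Idh3a in every library. Idh2, the mitochondrial one, stood at 67.6, 42.5 and 51.4 FPKM, and the mean log2 ratio of Idh3a to Idh2 was -1.12 ± 0.269. Idh1, the cytosolic one, stood at 84.5, 32.9 and 36.5 FPKM, and the ratio of Idh3a to Idh1 was -0.94 ± 0.181. This order held for Idh3a only: Idh3b and Idh3g each exceeded both Idh2 and Idh1 in every library. The margin was narrow for Idh3b over Idh1 in replicate 1, at 85.7 against 84.5 FPKM.

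The oxoglutarate dehydrogenase complex takes its decarboxylating component from Ogdh, its succinyltransferase from Dlst and its dihydrolipoyl dehydrogenase, shared with pyruvate dehydrogenase, from Dld. Ogdh (chromosome 11, 6291597 to 6359094) stood at 42.9, 35.5 and 42.0 FPKM over replicates 1, 2 and 3, the narrowest spread of the 9 genes, with a coefficient of variation of 9.99%. Dlst stood at 52.8, 37.1 and 39.6 FPKM and Dld at 60.5, 34.1 and 30.5. The mean log2 ratio of Ogdh to Dlst was -0.09 ± 0.194 (exact sign-flip permutation p = 0.75, 0.789 once adjusted over the 20 pairs examined, n = 3) and that of Ogdh to Dld 0.01 ± 0.478 (exact sign-flip permutation p = 1, also 1 adjusted, n = 3). Neither ratio kept its sign: Ogdh was below both partners in replicate 1, with ratios of -0.30 and -0.49, and above both in replicate 3, with ratios of 0.08 and 0.46. The paralog Ogdhl had 0.242 FPKM in replicate 1, a listed 0 in replicate 2 and 0.134 FPKM in replicate 3. Dhtkd1, a related dehydrogenase of lysine breakdown, stood at 2.44, 0.465 and 0.784 FPKM.

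Succinyl-CoA ligase makes ATP or GTP directly, and pairs a common alpha subunit, Suclg1, with an ATP-forming beta subunit, Sucla2, or a GTP-forming one, Suclg2. The ATP-forming subunit was the more abundant RNA. Suclg1 (chromosome 6, 73248505 to 73276907) stood at 60.3, 35.0 and 38.2 FPKM over replicates 1, 2 and 3, and Sucla2 (chromosome 14, 73552786 to 73596142) at 44.1, 29.5 and 26.7. Suclg2 stood at 23.6, 16.6 and 16.0 FPKM, so that its highest value lay below the lowest of Sucla2. Sucla2 exceeded Suclg2 by 0.90, 0.83 and 0.73 log2 units, a mean of 0.82 ± 0.0811 or 1.76-fold. Suclg1 exceeded Sucla2 by 0.40 ± 0.140 and Suclg2 by 1.22 ± 0.139, each in 3 of 3 libraries. The promoter of Sucla2 (plus strand, chr14:73552536-73552835) is shown in the same layout because it was the only promoter among the 8 found for these genes with an NRF1 match, which begins at -17; the other capitals are an Sp1 box.
Sucla2: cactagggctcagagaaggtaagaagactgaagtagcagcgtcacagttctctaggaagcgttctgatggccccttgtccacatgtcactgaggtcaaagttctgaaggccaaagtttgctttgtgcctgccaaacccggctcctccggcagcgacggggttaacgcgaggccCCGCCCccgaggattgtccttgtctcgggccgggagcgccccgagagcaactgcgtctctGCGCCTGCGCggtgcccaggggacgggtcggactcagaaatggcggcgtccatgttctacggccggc

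Fumarase, from Fh1 (chromosome 1, 175601378 to 175625635), hydrates fumarate to malate in mitochondria and also acts in the cytosol. Fh1 stood at 54.3, 32.6 and 31.7 FPKM over replicates 1, 2 and 3. It was below Sdha, the flavoprotein subunit of the preceding enzyme succinate dehydrogenase, by a mean log2 ratio of -1.14 ± 0.0663, the steadiest of the 20 ratios examined. It was further below the next enzyme, Mdh2, with a ratio of -2.15 ± 0.295, or 4.44-fold.

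Mdh2 (chromosome 5, 135778649 to 135790386), the mitochondrial malate dehydrogenase, stood at 196, 146 and 172 FPKM over replicates 1, 2 and 3, and its lowest value exceeded the highest value of every other gene of the 9. It was above Cs by 1.19 ± 0.247 log2 units, or 2.29-fold. Its cytosolic counterpart Mdh1, which works with it in the malate-aspartate shuttle, stood at 156, 66.1 and 65.8 FPKM. The log2 ratio of Mdh2 to Mdh1 was therefore 0.33 in replicate 1, against 1.14 and 1.39 in replicates 2 and 3. Pcx, pyruvate carboxylase, which also makes oxaloacetate in the matrix, stood at 144, 41.5 and 38.7 FPKM, and the ratio of Mdh2 to Pcx was 0.44, 1.81 and 2.15. For both partners the ratio was smallest in replicate 1. Mdh1b had 0.795 FPKM in replicate 1 and was listed at 0 in the others, and a link with the testis germ cell markers was not tested. The promoter of Mdh2 (plus strand, chr5:135778399-135778698), the most abundant of the 9 RNAs, held matches only to the Sp1 box, in capitals.
Mdh2: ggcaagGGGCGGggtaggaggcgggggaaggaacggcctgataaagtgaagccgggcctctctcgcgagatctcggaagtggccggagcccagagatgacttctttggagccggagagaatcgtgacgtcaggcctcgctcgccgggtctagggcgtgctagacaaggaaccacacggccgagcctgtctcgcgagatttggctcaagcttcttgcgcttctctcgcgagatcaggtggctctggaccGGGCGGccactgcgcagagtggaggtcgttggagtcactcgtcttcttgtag

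**Figure D2:**
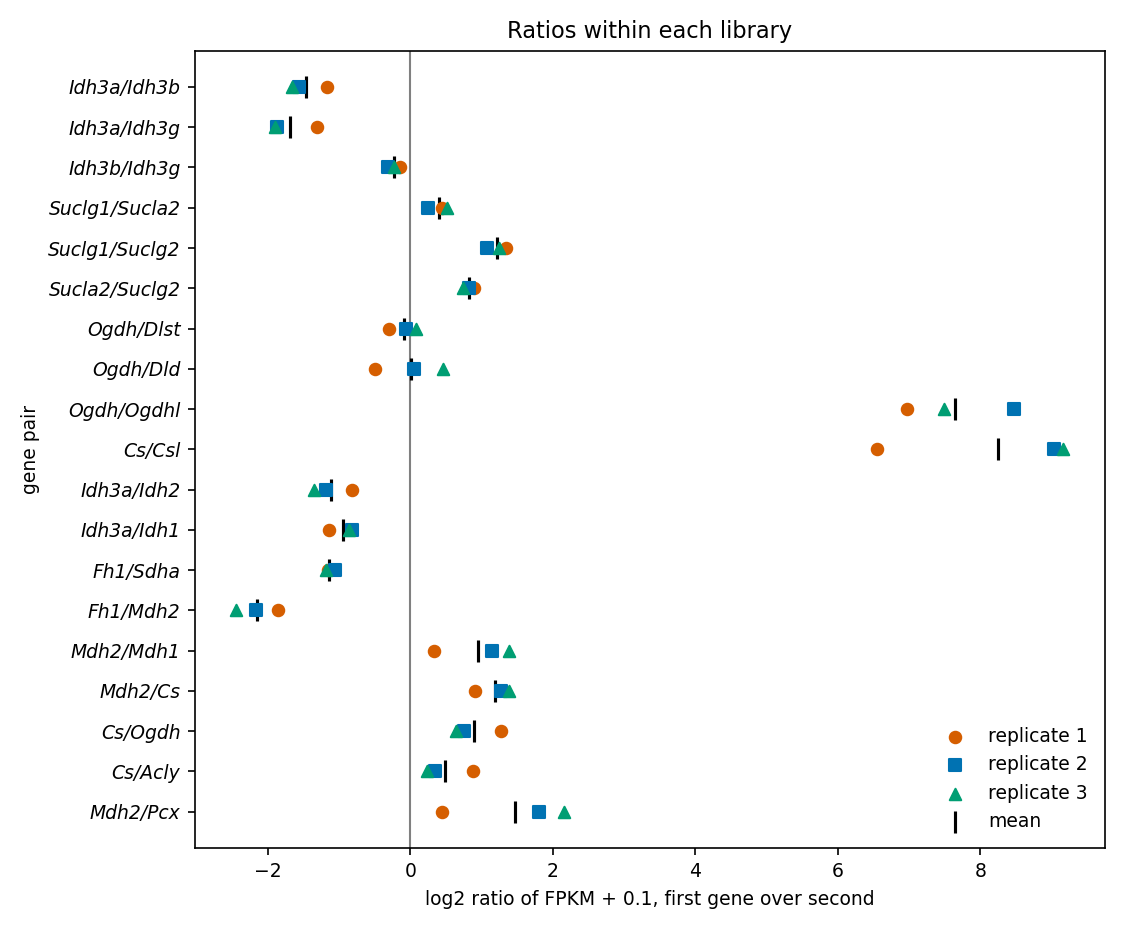
Log2 ratios of FPKM + 0.1, first gene over second, for 19 of the 20 gene pairs; points are the 3 libraries and black ticks their means. Points fall on 1 side of 0 for 17 of those plotted, and those of Ogdh/Dlst and Ogdh/Dld fall on both. Replicate 1 stands apart for several pairs, among them Mdh2/Mdh1, Mdh2/Pcx, Cs/Csl, Cs/Ogdh, Cs/Acly and Idh3a/Idh3g.

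Of the 20 pairs, 18 kept 1 sign in 3 of 3 libraries, 10 above 0 and 8 below. The same share was not computed for pairs of other genes. Some pairs, such as Cs and Csl, join genes of very different level, so the count is not a trait of the cycle genes. Each of the 18 gave an exact two-sided sign-flip permutation p of 0.25 and a Benjamini-Hochberg adjusted p, over all 20, of 0.278. No ratio could pass 0.05, since a sign-flip test on 3 libraries cannot go below 0.25.

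The 9 genes differed between libraries, and each was highest in replicate 1. That held for 9 of 9 in FPKM, against 46.7% of genes averaging at least FPKM 1, and 7 of 9 were lowest in replicate 2, against 48.7%; Sucla2 and Fh1 were lowest in replicate 3. The highest library exceeded the lowest by over 1.5-fold for 6 of the 9, against 41.2%, and the excess was widest for Idh3a, 2.04-fold, and narrowest for Ogdh, 1.21-fold. Replicate 1 exceeded each of the others by over 1.5-fold for 4 of the 9, Cs, Idh3a, Suclg1 and Fh1, against 14.5%; Sucla2 lay just under that limit. Ratios of replicate 3 to replicate 2 lay between 0.907 for Sucla2 and 1.18 for Ogdh. For Ogdh and Mdh2 replicate 3 was nearer to replicate 1, with ratios of replicate 1 to replicate 3 of 1.02 and 1.14. The libraries are replicates of 1 group, so these differences were not tested.

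Library medians differed as well. The median of genes averaging at least FPKM 1 was 9.67, 8.36 and 9.43 FPKM over replicates 1, 2 and 3. Log2 values were therefore centred on each library's median over those genes, and each gene's own mean was subtracted. After centring, replicate 1 was the highest library for 8 of the 9, against 37.2% of the same genes. The exception, Ogdh, had centred values of 0.02, -0.04 and 0.03. The median over the 9 was 0.35 in replicate 1, -0.10 in replicate 2 and -0.22 in replicate 3, while the medians over all genes were -0.03, 0.02 and 0.01. In replicate 1 the values ran from 0.02 for Ogdh and 0.12 for Mdh2 to 0.42 for Fh1 and 0.57 for Idh3a. When centred on the median of 16 respiratory chain genes instead, 6 of the 9 were highest in replicate 1, against 23.5% of genes averaging at least FPKM 1, and Idh3g, Ogdh and Mdh2 were highest in replicate 3.

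**Figure D3:**
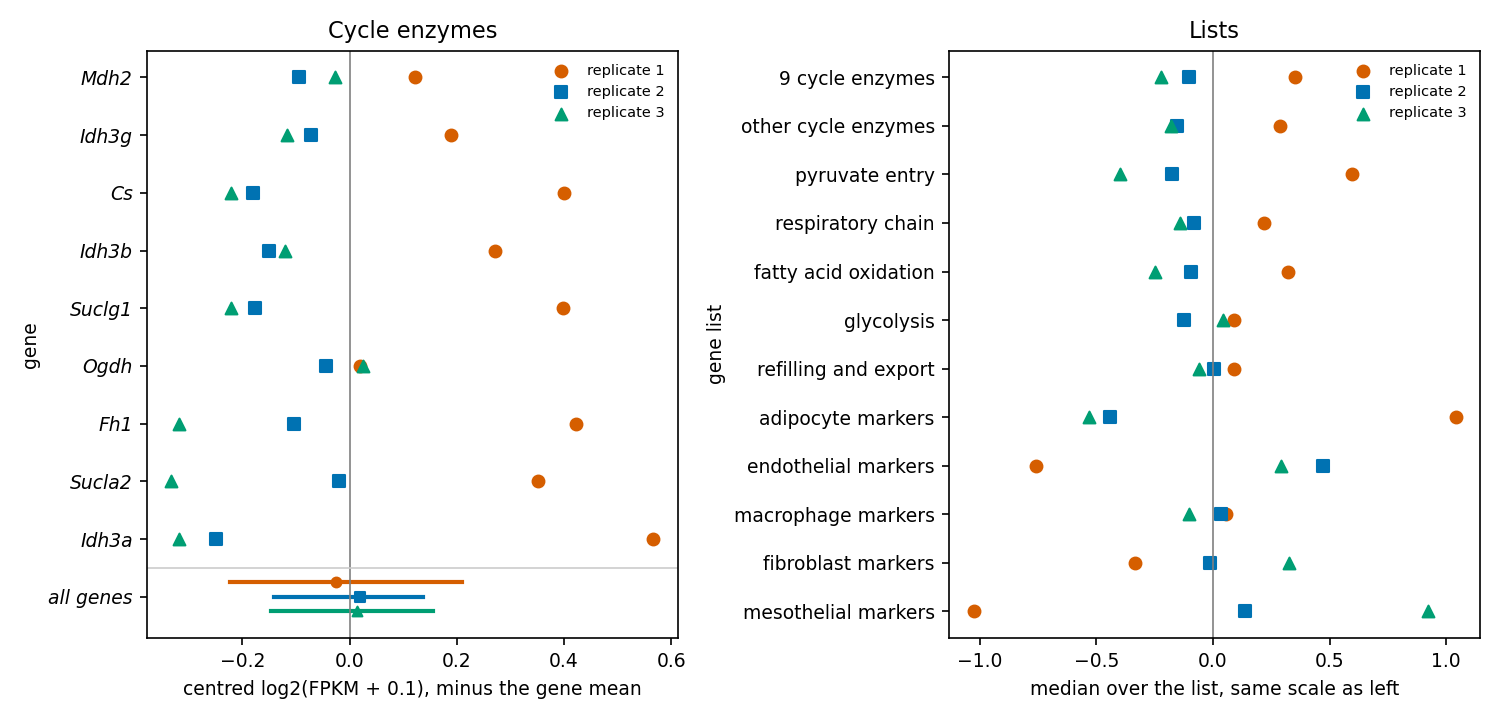
Left, centred log2 values minus the gene mean for the 9 genes, with medians and middle 50% of genes averaging at least FPKM 1 at the bottom; right, medians over selected gene lists on the same scale, without the testis germ cell list, whose median in replicate 1 was 3.89; points are the 3 libraries. Replicate 1 is to the right for 8 of the 9 cycle enzymes and at 1.04 for adipocyte markers, and it is to the left for endothelial, fibroblast and mesothelial markers.

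The other metabolic lists given in this paragraph also had their highest medians in replicate 1, by differing amounts. Counts below stand against the 37.2% of genes averaging at least FPKM 1 that were highest in replicate 1 after centring. The remaining 9 genes of the cycle include Idh2, Dlst, Dld, Suclg2 and the succinate dehydrogenase subunits Sdha, Sdhb, Sdhc and Sdhd. All 9 reached FPKM 1 in every library, against 45.5% of all genes. After centring, 9 of 9 were highest in replicate 1, with a median of 0.29 there. Of these, Sdhb was the most abundant, at 133, 76.3 and 87.6 FPKM, and Suclg2 the least. The 7 genes of pyruvate entry, the mitochondrial pyruvate carriers and enzymes that feed the cycle, had a median of 0.59 in replicate 1, led in mean abundance by the carrier gene Mpc1 at 141, 70.0 and 47.3 FPKM. Fatty acid oxidation genes had 0.32, with 11 of 14 highest in replicate 1, and respiratory chain genes 0.22, with 14 of 16. Glycolysis genes had 0.09, with 9 of 15, and so did the 17 genes that refill the cycle or export its intermediates, where 9 of the 15 with a mean FPKM of 1 or more were highest in replicate 1. That last list was mixed: Pck1, the cytosolic enzyme of glyceroneogenesis, stood at 427, 83.2 and 153 FPKM over replicates 1, 2 and 3, while Got2, a mitochondrial aminotransferase, stood at 28.0, 28.6 and 36.7.

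Cell type markers differed between libraries as well. All 12 adipocyte markers reached FPKM 1 in every library, against 45.5% of all genes. So did all 10 endothelial, 10 macrophage and 10 fibroblast markers. RNA of markers of the labelled cell type was thus detected together with that of markers of other cell types. Adipocyte markers summed to 12969.8, 4250.5 and 4447 FPKM over replicates 1, 2 and 3. After centring, 11 of 12 were highest in replicate 1, against 37.2% of genes averaging at least FPKM 1. Endothelial markers summed to 1915, 4267 and 3934 FPKM and 0 of 10 were highest there. Macrophage markers summed to 3140.0, 2459 and 2671, fibroblast markers to 840, 959 and 1187, and the 8 mesothelial markers to 55.5, 122 and 212. The 15 testis germ cell markers summed to 1340, 35.8 and 23.8 FPKM, and 3 of the 15 reached FPKM 1 in every library. Prm2, the highest of them by mean, stood at 387, 14.2 and 2.92 FPKM, while Acrv1 was listed at 0 in replicates 2 and 3. The 6 erythroid markers summed to 8240.1, 12482 and 9475, and the 8 skeletal muscle markers to 11.3, 17.3 and 11.6, with Myh4 listed at 0 in all 3 libraries. The summed level in replicate 1 over that in replicate 2 was 1.497 for the 9 cycle genes and 3.05 for the adipocyte markers. The part of these cell types in the differences of the cycle genes was not tested.

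Accessory factors of the cycle build its cofactors and assemble its enzymes. In the list of assembly and lipoylation genes, 12 of 13 reached FPKM 1 in all 3 libraries, against 45.5% of all genes. The list median was 3.82 ± 0.397 in log2(FPKM + 0.1), against 5.49 ± 0.389 for the 9 enzyme genes, a difference that was not tested, and levels ran from Iscu, the iron-sulphur scaffold gene, at 107, 84.5 and 97.7 FPKM to the lipoyltransferase gene Lipt1 at 2.14, 0.839 and 0.973. Of the 9 regulators of mitochondrial biogenesis, 6 reached FPKM 1 in every library, against the same 45.5%. Unlike the metabolic lists, the 6 regulators averaging at least FPKM 1 had a centred median below 0 in replicate 1, at -0.17. There 2 of the 6 were highest, against 37.2% of genes averaging at least FPKM 1. Yy1 led them at 21.4, 22.2 and 21.6 FPKM, while the coactivator gene Ppargc1a had 0.513, 0.0473 and 0.0286 and Esrrg was lowest at a mean of 0.0371. The nuclear receptor gene Esrra stood at 14.4, 9.49 and 11.1 FPKM, Nrf1 at 6.45, 8.52 and 7.77, and Gabpa at 8.82, 10.1 and 10.9.

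Among 5703 other genes averaging at least FPKM 10, the 5 whose centred values over the 3 libraries lay nearest to the median profile of the 9 genes were Ptpmt1, Cdc123, Ube2e2, Pdxk and Poldip2, at Euclidean distances of 0.0226 to 0.0320 log2 units. Ptpmt1, a mitochondrial phosphatase of cardiolipin synthesis, was the nearest, at 21.3, 13.2 and 13.7 FPKM over replicates 1, 2 and 3. Likeness over 3 libraries is a description only.

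RefSeq promoter sequences were found for 8 of the 9 genes, all but Idh3a, and were compared with those of 27025 symbols, of which 9132 had a mean FPKM of 1 or more. The series concerns CpG methylation, so CpG content was counted. The 8 promoters held between 14 CpG in Fh1 and 27 in Idh3g and Mdh2, a median of 21, which equals the median of 21 for expressed genes and exceeds the median of 7 over all promoters. The ratio of observed to expected CpG was 0.93 at the median, against 0.77 for expressed genes and 0.39 for all. It ran from 0.64 in Fh1 and 0.70 in Cs to 0.99 in Idh3g. Whether these CpG were methylated was not analysed here.

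**Figure D4:**
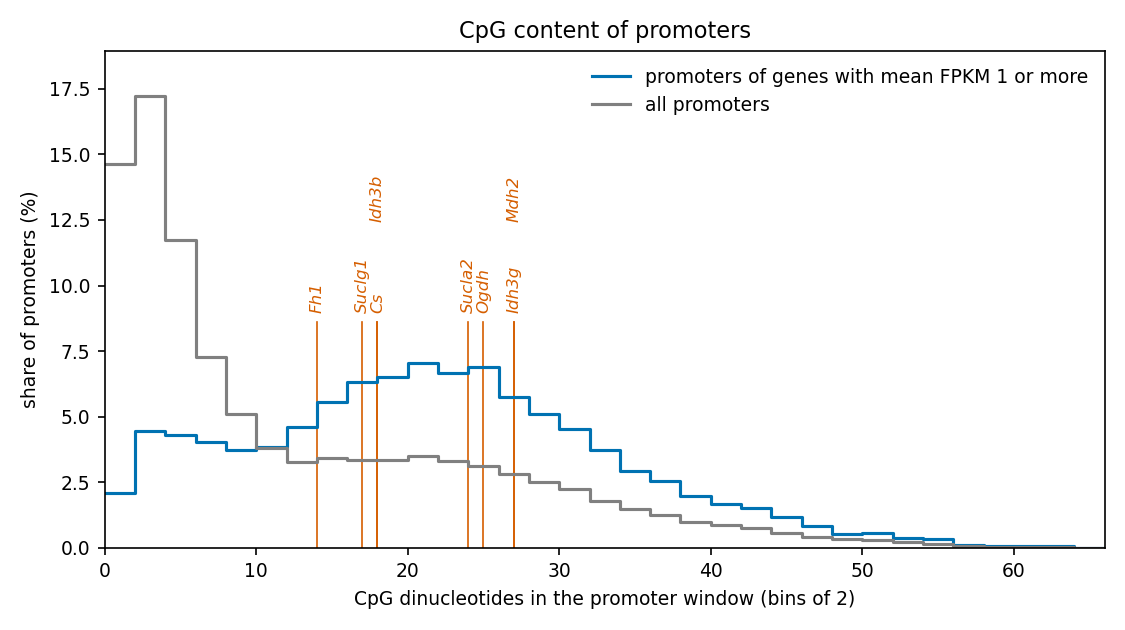
Distribution of CpG counts in promoter windows of 300 bases, as the share of promoters per bin, for genes averaging at least FPKM 1 and for all genes; vertical lines mark the 8 cycle genes. The 8 lines lie between 14 and 27 CpG, in the middle of the distribution of expressed genes.

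The motifs searched on both strands were the NRF1 motif, TCAAGGTCA and the shorter AAGGTCA that lies within it (estrogen-related receptors), AAGATGGCG (YY1), GGGCGG (Sp1), CCGGAAG (ETS factors, which include GABP), CCAAT (NF-Y) and, for the TATA box, TATAAA. The Sp1 box was found in 5 of the 8 promoters, those of Cs, Ogdh, Sucla2, Fh1 and Mdh2, against 64.6% of expressed and 35.9% of all promoters. CCAAT was in 4 of 8, those of Cs, Idh3b, Ogdh and Fh1, against 38.2% and 38.0%. The ETS motif was in Idh3b and Idh3g, against 18.2% and 9.14%, the NRF1 motif in Sucla2, against 10.6% and 4.82%, and the YY1 motif in Idh3g, against 3.23% and 1.48%. Neither form of the estrogen-related receptor motif nor the TATA box was in any of the 8, and Suclg1 held none of the motifs. For the long receptor motif, the short one and the TATA box the shares were 0.263%, 3.11% and 7.02% of expressed and 0.407%, 4.65% and 14.2% of all promoters. A match describes letters in this window and is not evidence of binding.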

How the data were processed

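The authors deposited 1 table of FPKM values per gene with 1 column for each of the 3 wild-type RNA libraries and no log scale. Columns were matched to libraries by the column names in the sample descriptions. The labels' protocols state trizol extraction and standard Illumina RNA libraries. Per the submitters' processing notes, featureCounts, Bismark 0.22.1 and Trim Galore 0.5.0 are named, as are builds mm10 and GRCm38, with no role for any; which program computed FPKM is not stated there. A listed 0 can be a failed estimate. No counts were given, so count tests were not used. FPKM falls for all genes when a few take more of a library, and fragments of overlapping or similar genes are uncertain. Locus starts were converted to count from 1; for 7 of the 9 genes start and end equal those of RefSeq GRCm38.p6, and for Cs the RefSeq start used for CpG and motifs lies upstream of the table's. For genes with several RefSeq starts, such as Ogdh, the most upstream one was used.

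Of 24889 rows, 27 with a date in place of a symbol were left out, and for 273 symbols with several rows only the row of highest mean was used, which leaves 24330 genes. Computations ran in Python 3.11.15 with pandas 2.3.3, numpy 2.4.6 and matplotlib 3.10.9. The log2 scale is log2(FPKM + 0.1); for genes near 0 it understates ratios. Ratios were formed within each library and tested by two-sided exact sign flips (a permutation test), adjusted by Benjamini-Hochberg over 20 pairs. Only the centring was tested on simulated data. The sign-flip and adjustment steps were checked on a few fixed values. Depth is unknown, so precision is given as the SD over 3 libraries. The genes, the 18 lists of 195 genes, all of them measured, and the pairs were chosen with earlier results of these data known. Genes to be named were set by rule: the 9 genes, other cycle genes and paralogs, the pair genes, the highest and lowest gene of each list, and the 5 genes nearest in profile; Ssr4, Nop56, Esrra, Nrf1, Gabpa, Ppargc1a, Got2 and Acrv1 were named after their values were seen, and some genes were left out for length. One gene that forms part of the cycle list and of 1 pair is counted in the totals but not reported here. Protein identities between subunits were planned but not computed, because no protein sequences were used here. Alternatives covered the pseudocount, the detection threshold, mean against median, filters, TPM, centring, summed rows, the promoter window and leaving out each library.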

Additional observations from a re-analysis of the deposited data

How the results depend on the processing

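All 9 genes also passed detection thresholds of FPKM 0.5 and 5 in every library. Of 20 pair ratios under 6 alternatives, 117 of 120 values kept their direction. The 3 that reversed concern ratios that had no common sign: the log2 ratio of Ogdh to Dlst ranged from -0.18 to 0.01 and that of Ogdh to Dld from -0.22 to 0.26 as each library was left out, with -0.02 for Ogdh to Dld without replicate 2 and 0.0109 for Ogdh to Dlst without replicate 1. The ratio of Cs to Acly was 0.29 without replicate 1, against 0.48 with all 3. Rescaled to TPM, the median log2 level of the 9 genes was 6.47, against 5.49 in FPKM. The columns, totalling 504178, 488721 and 524092 FPKM in replicates 1, 2 and 3, are then scaled up to the same larger total. Replicate 1 was the highest library for 9 of 9 with no centring, against 46.7% of all genes averaging at least FPKM 1, for 9 of 9 when centred on genes averaging at least FPKM 10, against 42.9%, and for 6 when centred on respiratory chain genes, against 23.5%. In the shorter promoter window the YY1 match and 1 of the 2 ETS matches were lost. Libraries could not be paired between groups because the RNA libraries form 1 group, while ratios of gene pairs were formed within each library. Depth is unknown, and values of genes near 0, such as Csl, Ogdhl and Mdh1b, depend on the pseudocount.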
